A study of Mus musculus with 12 samples.

Results

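Cyclic nucleotide phosphodiesterases hydrolyse the second messengers cAMP and cGMP and thereby end the signals that receptors start through adenylyl and guanylyl cyclases. The mRNA levels of 8 of these genes, Pde3b, Pde4a, Pde4b, Pde4d, Pde7a, Pde8a, Pde1b and Pde2a, were followed here in mouse eosinophils with and without Atg5. They were picked by name, with the lower Pde3b level in Atg5-knockout bone marrow already known, from a table of 53801 annotated genes. That contrast is therefore given below as a description, without a test. The other 16 cyclic nucleotide phosphodiesterase genes in the table serve as a background for the family.

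The study used bulk RNA sequencing of eosinophils from bone marrow and blood, with 3 libraries in each of 4 groups, labelled Control-BoneMarrow, Atg5-Knockout-BoneMarrow, Control-Blood and Atg5-Knockout-Blood. Every mouse carried the eosinophil Cre allele eoCre, a knock-in at the eosinophil peroxidase gene Epx that was heterozygous, and the interleukin-5 transgene Il5tg, which is driven from Cd3d sequences in T cells and fills blood and marrow with eosinophils. The knockout mice carried a floxed Atg5 gene on both alleles in addition, and the controls did not. Atg5 encodes a protein needed to form autophagosomes. Age and sex of the sequenced mice were not given in the sources used here. Cells were enriched by depleting other lineages with antibodies, and blood was also taken through a density gradient and red cell lysis, so a difference between tissues cannot be told apart from a difference in isolation.

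In eosinophils and other leukocytes, cAMP is known to restrain activation, and each phosphodiesterase family handles it differently. PDE4, PDE7 and PDE8 enzymes are specific for cAMP, PDE3 enzymes hydrolyse cAMP and are inhibited by cGMP, PDE1 enzymes are switched on by calcium and calmodulin, and PDE2 enzymes are stimulated by cGMP. PDE4 inhibitors are in clinical use against inflammatory disease, and PDE4B is regarded as a main PDE4 enzyme of inflammatory cells. Several PDE4 genes have internal start sites, some of which respond to cAMP through CREB, which binds the cAMP response element.

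Start-site sequences are shown for 3 members because they contrast genes that did and did not differ between tissues. RefSeq windows (GRCm38.p6), each reaching from 250 bases before to 50 bases after an annotated start, were found for 6 of the 8 genes, 17 windows in all. No window was given for Pde3b or Pde7a. The cAMP response element was searched on both strands as the full site TGACGTCA and as its core TGACG, which the full site contains, and capitals mark the core on either strand. The windows below lie on the plus strand at chr4:102421305-102421604 (1 of 4 windows of Pde4b), chr13:108653927-108654226 (Pde4d) and chr7:81213015-81213314 (Pde8a).
Pde4b: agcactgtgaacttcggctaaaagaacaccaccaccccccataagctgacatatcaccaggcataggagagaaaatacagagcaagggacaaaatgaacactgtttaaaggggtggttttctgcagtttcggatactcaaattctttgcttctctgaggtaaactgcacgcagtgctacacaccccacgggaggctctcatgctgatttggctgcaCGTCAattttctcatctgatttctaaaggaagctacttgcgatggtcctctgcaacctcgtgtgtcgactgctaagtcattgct
Pde4d: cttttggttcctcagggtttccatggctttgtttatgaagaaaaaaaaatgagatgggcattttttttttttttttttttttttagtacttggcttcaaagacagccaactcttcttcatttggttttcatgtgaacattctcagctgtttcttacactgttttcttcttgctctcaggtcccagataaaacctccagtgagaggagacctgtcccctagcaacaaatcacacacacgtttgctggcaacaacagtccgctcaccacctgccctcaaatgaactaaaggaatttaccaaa
Pde8a: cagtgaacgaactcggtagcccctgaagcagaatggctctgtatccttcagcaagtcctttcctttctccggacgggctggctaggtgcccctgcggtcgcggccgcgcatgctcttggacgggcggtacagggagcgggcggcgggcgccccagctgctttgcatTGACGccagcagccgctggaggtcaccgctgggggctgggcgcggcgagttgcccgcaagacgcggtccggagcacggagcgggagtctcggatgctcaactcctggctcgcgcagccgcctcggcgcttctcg
None of the 17 windows held the full site, which occurred in 1.79% of 32851 RefSeq promoter windows. The core was present in 4 of 17, 1 each for Pde4b, Pde8a, Pde2a and Pde4a, against 20.8% of all windows. It lay in only 1 of the 4 Pde4b windows, which is the window shown, and Pde4b was higher in blood. It also lay in the Pde8a window, whose gene was not called between tissues. It was missing from the Pde4d window, whose gene was higher in blood. The letters describe these windows only, and the counts do not separate transcripts by their start site.

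The libraries held between 18885052 and 30270166 counts. Levels are given as CPM, counts divided by the TMM-adjusted library size, and levels between genes as CPM per kilobase of annotated exon (RPKM). A gene was called when edgeR's quasi-likelihood test gave a Benjamini-Hochberg adjusted p below 0.05 over all genes of that comparison. Atg5 itself lay at 30.6 to 33.9 CPM in knockout and 40.5 to 45.4 CPM in control bone marrow, and at 36.6 to 52.4 and 40.1 to 58.7 CPM in blood. Its log2 fold change was -0.44 ± 0.11 (SE, edgeR adjusted p = 0.157) in bone marrow and -0.01 ± 0.22 (adjusted p = 1) in blood, and since counts were summed over all exons this does not check the deletion. All 10 eosinophil markers, among them Epx, Prg2, Siglecf and Il5ra, had counts in each group. Their summed share of counts was 8.04 to 10.2% in bone marrow and 1.80 to 4.05% in blood. Transcripts of 10 cycling-cell genes made up 0.171 to 0.245% in bone marrow and 0.00526 to 0.0141% in blood. Those of 12 neutrophil genes made up 2.26 to 3.23% in bone marrow and 1.25 to 2.22% in blood. In knockout blood library 1 the neutrophil share, 2.22%, was above the eosinophil share of 1.80%. The blood library numbered 1 stood apart in both genotypes, with B cell transcripts at 0.220% (knockout) and 0.109% (control) against at most 0.0387% in the other blood libraries, T cell transcripts at 0.0298% and 0.0163% against at most 0.00493%, and the lowest eosinophil share of its group. Control blood library 1 also held 14.6% red cell transcripts, against at most 1.42% in the other 11 libraries. In bulk RNA, fewer cells of a type and less RNA per cell cannot be told apart.

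Per kilobase, 3 genes made up most of the phosphodiesterase message in every group. Of the summed RPKM of 21 catalytic-subunit genes (all 24 but Pde6d, Pde6g and Pde6h), Pde7a held 39% ± 2.13 (SD, n = 3) and Pde3b 32.7% ± 2.87 in control bone marrow, with Pde4b at 11.1% ± 1.08. In control blood Pde4b held 48.3% ± 14.1, Pde3b 22.7% ± 10.7 and Pde7a 15.2% ± 2.87. Knockout eosinophils had the same 3 leading genes. Pde7a held 37.9% ± 3.57, Pde3b 25.6% ± 1.81 and Pde4b 11.6% ± 1.24 in knockout bone marrow, and Pde4b held 56.2% ± 6.28, Pde3b 19.1% ± 5.26 and Pde7a 13.5% ± 2.86 in knockout blood. The summed RPKM was 32.1 ± 1.55 in control and 26.0 ± 1.32 in knockout bone marrow, and 74.8 ± 12.2 and 94.3 ± 21.9 in control and knockout blood. The other 13 genes of the sum added little to any library, as the plot of the shares shows.

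**Figure D1:**
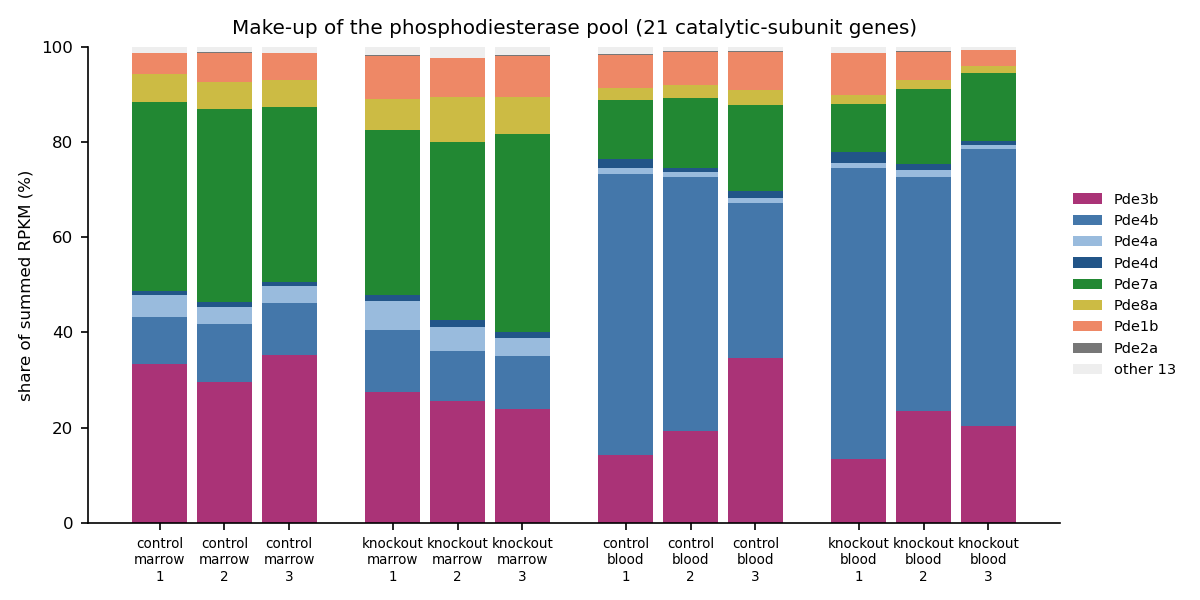
Share of the summed RPKM of 21 phosphodiesterase catalytic-subunit genes (percent, vertical axis) in each of the 12 libraries, 3 per group, stacked by gene with the other 13 genes in pale grey. Pde7a and Pde3b were the largest parts in the 6 bone marrow libraries, and Pde4b was the largest in 5 of 6 blood libraries, the exception being control blood library 3 with 32.4% Pde4b and 34.7% Pde3b.

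The order of RPKM levels was Pde7a, Pde3b, Pde4b in both bone marrow groups, and no library overlapped between these neighbours. In control bone marrow the CPM of Pde7a and Pde3b did overlap (means 96.9 and 96.0). Their order there rests on annotated exon lengths of 7748 and 9114 bases. Orders and shares per kilobase use the union of annotated exons, which need not match the isoforms expressed. At lower levels, Pde8a and Pde1b overlapped in RPKM in both bone marrow groups, as did Pde1b and Pde4a in the controls. In blood the order was Pde4b, Pde3b, Pde7a, Pde1b, Pde8a, Pde4d, Pde4a and Pde2a in both genotypes. By mean CPM, Pde4d was above Pde8a in blood (12.8 against 8.23 in controls, 15.7 against 6.62 in knockouts). Pde4b and Pde3b overlapped in control blood (means 37.1 ± 15.7 and 16.2 ± 5.54 RPKM) but not in knockout blood (53.4 ± 15.8 and 18 ± 6.30 RPKM). Pde4d and Pde4a overlapped in both blood groups, and in knockout blood so did Pde3b and Pde7a, and Pde8a and Pde4d. Pde2a was last in every group, at 0.0145 to 0.0953 RPKM on average.

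Pde3b (ENSMUSG00000030671, chr7:114415281-114539251, plus strand, GRCm38) encodes the cGMP-inhibited, membrane-bound enzyme through which insulin and phosphoinositide 3-kinase signals lower cAMP. Its levels in bone marrow were 63.9, 58.0 and 59.7 CPM in the knockout and 97.5, 82.4 and 108 CPM in the control libraries. The 3 knockout libraries were all below the 3 controls. The log2 fold change was -0.69 ± 0.11 (SE, n = 3 and 3), or 1.62-fold lower, and this is the value by which the genes were chosen. In blood the levels were 106, 164 and 221 CPM in the knockout and 114, 124 and 206 CPM in the control. The blood groups overlapped, with library 1 lowest and library 3 highest in both genotypes. The log2 fold change in blood was 0.17 ± 0.32 (SE, edgeR adjusted p = 1), with a 95% confidence interval from -0.55 to 0.89, and it was -0.12 without knockout blood library 3. All blood libraries lay above the bone marrow libraries of their genotype, narrowly so in the controls, where the lowest value in blood was 114 CPM and the highest in bone marrow 108 CPM. The difference of blood against bone marrow was 0.61 ± 0.24 on the log2 scale in the controls and 1.45 ± 0.23 in the knockouts. The control value was 0.31 without control blood library 3 and 0.29 with scaling by library size alone. The knockout effect differed between tissues by 0.81 ± 0.36 on the log2 scale, which again contains the bone marrow contrast of the choice and was not tested.

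**Figure D2:**
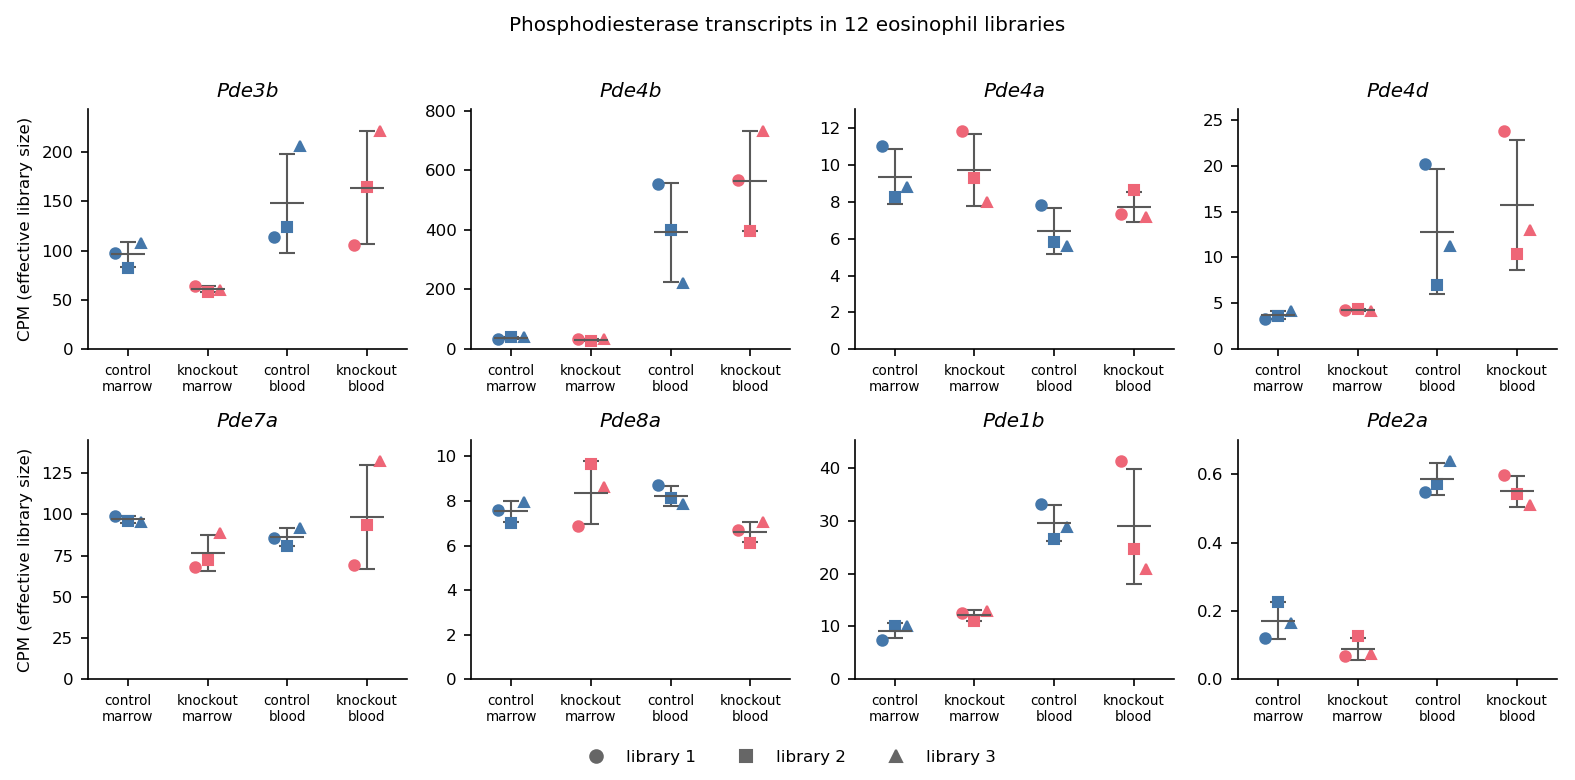
CPM (linear vertical axes starting at 0, one panel per gene) of the 8 phosphodiesterase genes in the 4 groups on the horizontal axis, with points for single libraries, their number given by the symbol, and a bar and whiskers for the mean ± SD of 3 libraries. Pde3b in bone marrow was 58.0 to 63.9 CPM in knockouts and 82.4 to 108 CPM in controls, and Pde4b, Pde4d, Pde1b and Pde2a were higher in all 6 blood libraries than in the 6 bone marrow libraries.

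The PDE4 genes encode cAMP-specific enzymes that bind anchoring proteins through their variable N-termini. Pde4b (ENSMUSG00000028525, chr4:102087543-102607259, plus strand) lay at 34.9, 27.9 and 32.2 CPM in knockout and 34.1, 39.4 and 39 CPM in control bone marrow. In blood it reached 566, 397 and 730.0 CPM in the knockout and 553, 399 and 222 CPM in the control. Every blood library exceeded every bone marrow library several-fold. In the controls Pde4b was 10.4-fold higher in blood (95% confidence interval 6.29 to 17.1, edgeR adjusted p = 0.00012), and in the knockouts 18-fold (12.4 to 26.1, adjusted p = 3.8e-06). Between genotypes the libraries overlapped in both tissues, with a log2 fold change of -0.27 ± 0.12 (SE) in bone marrow and 0.55 ± 0.35 (edgeR adjusted p = 1) in blood, where the 95% confidence interval ran from -0.24 to 1.33. The blood value was 0.27 without control blood library 3, 0.31 without knockout blood library 3 and 0.88 without control blood library 1.

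Pde4d (ENSMUSG00000021699, chr13:108449948-109953461, plus strand), an isoform-rich PDE4 gene, lay at 4.22, 4.41 and 4.12 CPM in knockout and 3.31, 3.61 and 4.17 CPM in control bone marrow. In blood it was at 23.8, 10.4 and 13 CPM in the knockout and 20.2, 6.95 and 11.2 CPM in the control. Both libraries numbered 1, which held the most B and T cell transcripts, had the highest value of their group. Pde4d was 3.42-fold higher in control blood than in control bone marrow (edgeR adjusted p = 0.0082) and 3.74-fold higher in the knockouts (adjusted p = 0.0012). Without the blood library numbered 1 the log2 fold change was 1.29 (edgeR adjusted p = 0.0048) in controls, against 1.78 with it, and 1.47 (adjusted p = 0.00024) in knockouts, against 1.90. Between genotypes it overlapped in both tissues, at a log2 fold change of 0.17 ± 0.20 (SE) in bone marrow and 0.32 ± 0.44 (edgeR adjusted p = 1) in blood. Within each of the 3 numbers, which paired the blood samples, the knockout value was the higher one, and the fit with the replicate block gave 0.36 (edgeR adjusted p = 0.716). The unblocked blood value was -0.12 without knockout blood library 1 and 0.38 without both libraries numbered 1.

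Pde4a (ENSMUSG00000032177, chr9:21165714-21213248, plus strand), the third PDE4 gene followed here, lay at 11.9, 9.33 and 8.03 CPM in knockout and 11.1, 8.28 and 8.81 CPM in control bone marrow, and at 7.32, 8.66 and 7.20 CPM and 7.86, 5.80 and 5.60 CPM in knockout and control blood. The genotypes overlapped in both tissues. All 3 control blood libraries were below the control bone marrow libraries, at a log2 fold change of -0.56 ± 0.26 (SE, edgeR adjusted p = 0.123). That difference was called without control blood library 1 (-0.73, edgeR adjusted p = 0.0344) and with scaling by library size alone (-0.87, adjusted p = 0.0269). In the knockouts it was -0.32 ± 0.22 (adjusted p = 0.266), where the groups overlapped. The value of Pde4a between tissues thus had the opposite sign to those of Pde4b and Pde4d.

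Pde7a (ENSMUSG00000069094, chr3:19223108-19311322, minus strand), a high-affinity cAMP enzyme expressed in leukocytes, was among the 3 leading genes per kilobase in every group. Its levels in bone marrow were 68.4, 72.3 and 88.6 CPM in the knockout and 99.1, 96.1 and 95.4 CPM in the control. All knockout libraries were below the controls, with a log2 fold change of -0.37 ± 0.12 (SE), which belongs to the contrast of the choice. In blood the levels were 69.5, 93.5 and 132 CPM in the knockout and 85.9, 80.8 and 91.8 CPM in the control, which overlapped at 0.21 ± 0.24 (edgeR adjusted p = 1), or -0.07 without knockout blood library 3. Pde7a was not called between tissues, at -0.18 ± 0.14 (95% confidence interval -0.50 to 0.14, edgeR adjusted p = 0.351) in controls and 0.38 ± 0.22 (-0.12 to 0.87, adjusted p = 0.184) in knockouts. With library size scaling the control value was -0.49 (edgeR adjusted p = 0.0240), and without knockout blood library 1 the knockout value was 0.57 (adjusted p = 0.0161).

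Pde8a (ENSMUSG00000025584, chr7:81213596-81334533, plus strand), a high-affinity cAMP enzyme that common PDE inhibitors leave active, ranged only from 6.14 to 9.64 CPM over the 12 libraries. In blood the knockout libraries were at 6.68, 6.14 and 7.05 CPM and the controls at 8.72, 8.13 and 7.85 CPM. The knockout libraries were all lower, but the log2 fold change of -0.29 ± 0.25 (SE) did not pass the test (edgeR adjusted p = 1, 95% confidence interval -0.87 to 0.28). In bone marrow the groups overlapped at 0.12 ± 0.17, and between tissues the values were 0.11 ± 0.22 (edgeR adjusted p = 0.719) in controls and -0.32 ± 0.22 (adjusted p = 0.253) in knockouts. Scaling by library size turned the control value to -0.19. The processed pseudogene Gm7180 lies within the Pde8a span on the other strand and shares none of its exon bases.

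Pde1b (ENSMUSG00000022489, chr15:103503034-103530052, plus strand) encodes a calcium and calmodulin-dependent enzyme that hydrolyses both messengers. It lay at 12.5, 10.9 and 12.9 CPM in knockout and 7.51, 10.1 and 10.1 CPM in control bone marrow. All 3 knockout libraries were above the controls, with a log2 fold change of 0.36 ± 0.16 (SE), a value from the contrast of the choice. In blood it was at 41.2, 24.6 and 20.9 CPM in the knockout and 33.2, 26.5 and 28.8 CPM in the control, overlapping at -0.01 ± 0.27 (edgeR adjusted p = 1). Library size scaling gave 0.11, and leaving out 1 library gave values between -0.36 and 0.17. Blood was higher than bone marrow by 3.17-fold in the controls (95% confidence interval 2.30 to 4.37, edgeR adjusted p = 0.00051) and 2.42-fold in the knockouts (1.63 to 3.59, adjusted p = 0.0032). The highest blood value of each genotype again came from library 1, and without it the log2 fold change was 1.57 (edgeR adjusted p = 0.00021) against 1.66 in controls and 0.93 (adjusted p = 0.0010) against 1.27 in knockouts.

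Pde2a (ENSMUSG00000110195, chr7:101421691-101512827, plus strand), the cGMP-stimulated enzyme, was near the limit of detection with 94 counts over 12 libraries. It had 14, 12 and 10 counts in knockout and 9, 13 and 13 counts in control blood, and 2, 4 and 2 counts in knockout and 4, 6 and 5 counts in control bone marrow. The blood libraries were all higher in CPM than the bone marrow libraries. Pde2a passed the low-count filter between tissues only through blood, so only a higher blood level could bring it into the tissue tests. The log2 fold change was 1.75 ± 0.57 (SE, edgeR adjusted p = 0.0425) in controls and 2.56 ± 0.62 (adjusted p = 0.0086) in knockouts. The control call was lost in 4 of the 7 other processings, DESeq2 among them (adjusted p = 0.0879), and in 5 of the 6 that left out 1 library. In bone marrow it was too low to be fitted between genotypes, and in blood the value was -0.07 ± 0.59 (edgeR adjusted p = 1). The same-strand gene Gm45837 covers 64.3% of the Pde2a exon bases, and reads that fall on both genes were not counted for either, so the Pde2a level is uncertain.

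**Figure D3:**
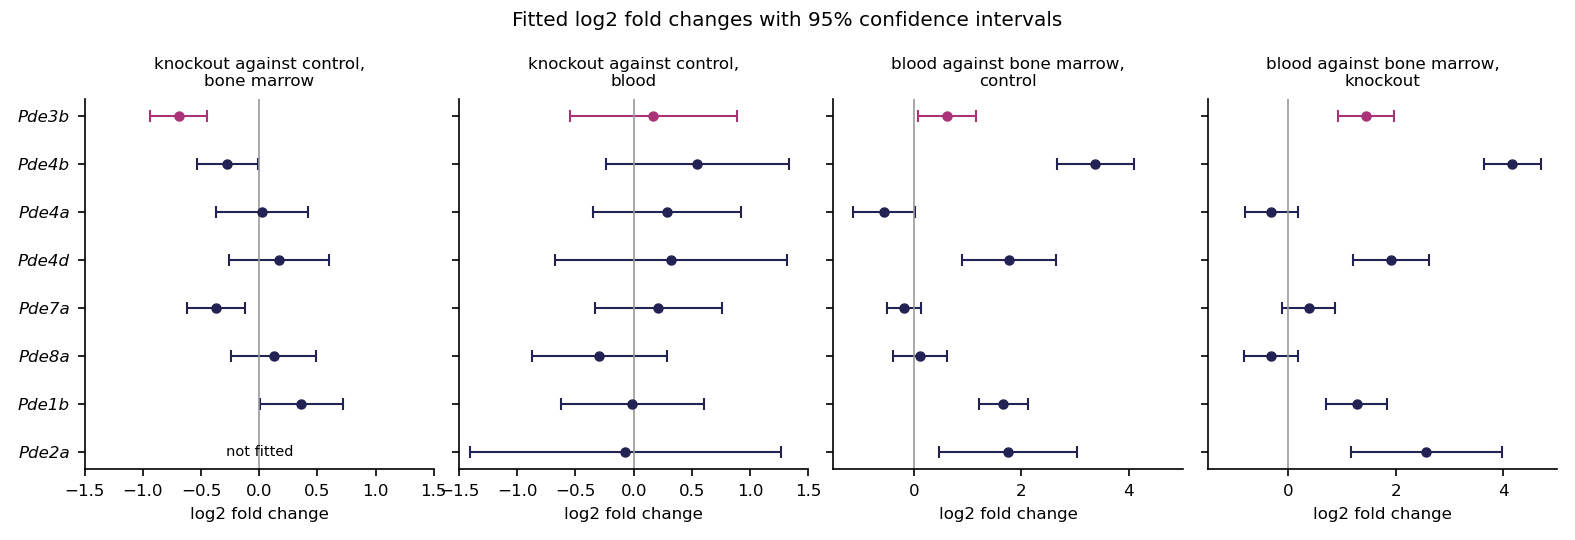
Fitted log2 fold change (horizontal axis, with 95% confidence intervals) of each phosphodiesterase gene in 4 comparisons, with Pde3b in purple. The intervals in blood between genotypes all include 0, and those of Pde4b, Pde4d, Pde1b and Pde2a lie above 0 in both comparisons of blood against bone marrow. Those of Pde3b lie above 0 there too. All intervals between genotypes in bone marrow, and those of Pde3b between tissues, use the values of the choice and are not read as tests.

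Across the 8 genes, the comparison of knockout with control bone marrow placed 3 of 7 fitted genes without overlap between the groups, Pde3b and Pde7a lower and Pde1b higher. Over all 13781 genes fitted, 14.4% had no overlap (8.68% higher, 5.67% lower) and 0.348% were called, and nothing is read from the members' count because this contrast chose them. In blood, 0 of 8 were called between genotypes by edgeR, DESeq2 or limma-voom, with 0 at an unadjusted p below 0.05, where 0.0371% of 13460 genes were called, 5 in all. Of the 8, Pde8a alone had no overlap there, against 7.59% of all genes (3.53% higher, 4.06% lower). With the replicate block, since the numbers paired the blood samples, 10 genes were called in blood and the members' count stayed at 0. Blood against bone marrow gave 4 called genes of 7 tested in controls, all higher in blood, where 16.2% of 13669 genes were called higher and 34.2% in either direction. The same 4 genes, Pde4b, Pde4d, Pde1b and Pde2a, were called higher in the knockouts, where 23.5% of 13853 genes were called higher and 47.6% in either direction. Pde2a, kept by the low-count filter only through its blood counts, could enter only as a gene higher in blood. Its place in the tissue counts and medians given here is not read as a result. Leaving out Pde3b, 4 of 7 genes were higher and 2 lower without overlap in control blood, against 23.5% and 26.6% of all genes (50.0% in either direction), and 4 were higher and 0 lower in knockout blood, against 27.7% and 32.3% (60.0%). The median log2 fold change of these 7 genes was 1.66 in controls and 1.27 in knockouts, against 0.00 and -0.01 over all genes. Scaling by library size alone moved the median over all genes to -0.31 and -0.24 and the share of called genes that were higher in blood from 47.3% to 25.1% in controls and from 49.4% to 34.3% in knockouts. Under that scaling Pde4b, Pde4d and Pde1b were still called higher in both genotypes. These tissue comparisons share no libraries, but blood libraries of the same number deviated together across genotypes, so the comparisons are not independent. No gene was called for a difference of the knockout effect between tissues by edgeR or limma-voom over 14712 genes (0% called, 740 genes at an unadjusted p below 0.05 by edgeR, 15 called by DESeq2). The estimates, given without a test, were 0.77 ± 0.39 (SE, log2) for Pde4b, 0.53 ± 0.27 for Pde7a, 0.22 ± 0.32 for Pde4a, 0.10 ± 0.52 for Pde4d, 0.79 ± 0.81 for Pde2a, -0.42 ± 0.33 for Pde1b and -0.47 ± 0.28 for Pde8a.

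Of the other 16 phosphodiesterase genes, 5 passed the filter on low counts in bone marrow and 4 in blood, and none was called between genotypes in either tissue. Pde6d, which encodes a chaperone of prenylated proteins rather than an enzyme, was the most abundant per kilobase, at 18 RPKM in control bone marrow and 9.92 RPKM in control blood. It fell in blood by 0.87 on the log2 scale in controls (edgeR adjusted p = 0.0086) and by 0.60 in knockouts (adjusted p = 0.014). Pde8b, the relative of Pde8a, was higher in blood by 1.57 (edgeR adjusted p = 0.0239) and 2.08 (adjusted p = 0.0023), at mean levels of only 1.88 and 2.11 CPM in blood. The tissue difference of Pde7b was 2.03 (edgeR adjusted p = 0.017) in the knockouts and 1.09 (adjusted p = 0.118) in the controls. Pde5a, the cGMP-specific enzyme, lay at 6.22 CPM in control blood library 1 and at 0.911 to 2.65 CPM in the other 11 libraries. Pde3a had 26 counts in that library and 0 to 5 in the others. The same library had the highest platelet transcript share, 0.0632% against at most 0.0479% elsewhere, whose part in these values was not tested.

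The rest of the cyclic nucleotide pathway was read from 8 lists of 102 genes, of which 101 were matched. Between genotypes, 0 of 58 genes tested in bone marrow and 0 of 57 in blood were called by edgeR, and limma-voom called none. By edgeR, 10 and 1 were at an unadjusted p below 0.05, beside 1333 of 13781 and 347 of 13460 among all genes fitted. DESeq2 called 3 in bone marrow, all lower in the knockout, among them the prostaglandin E2 receptor gene Ptger4 and the adenosine receptor gene Adora2a, with log2 fold changes of -0.52 and -0.51, and 0 in blood. Over all genes DESeq2 called 60 higher and 136 lower in knockout bone marrow. The median log2 fold change over the lists was -0.06 in bone marrow and -0.04 in blood, against 0.00 and 0.01 over all genes. The leading gene of the receptor list in both tissues was Ptger4, at -0.51 ± 0.13 (SE, edgeR adjusted p = 0.167) in bone marrow and 0.56 ± 0.21 (adjusted p = 1) in blood.

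Between tissues, 24 of 57 tested genes were called in controls, 16 higher and 8 lower in blood (42.1%), and 35 of 59 in knockouts, 23 higher and 12 lower (59.3%). These shares stand beside 34.2% and 47.6% of all genes. The receptors that raise cAMP through Gs divided in both genotypes, 3 higher and 4 lower of 9 tested in controls and 3 higher and 5 lower of 10 in knockouts. Adora2a rose from 33.8 to 169.5 CPM in controls (log2 fold change 2.31 ± 0.16 (SE), edgeR adjusted p = 2.3e-05) and from 24.4 to 208 CPM in knockouts (3.11 ± 0.25, adjusted p = 2.3e-05). The adrenergic receptor gene Adrb1 had 87 counts in control blood and 0 in control bone marrow, at least 43.6-fold higher when the group without counts is set to 3 counts, and 193 and 1 counts in the knockouts. In the other direction, Ptger4 fell with log2 fold changes of -1.97 in controls and -0.92 in knockouts, the prostacyclin receptor gene Ptgir with -2.06 and -1.73, and the low-affinity adenosine receptor gene Adora2b with -2.08 and -1.60, all called by edgeR. The median over the list was -1.53 in controls, also with Adrb1 at its bound, and -0.30 in knockouts.

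Gnai2, the Gi alpha subunit that inhibits adenylyl cyclase and the most abundant gene of its list, rose from 981 to 1536 CPM in controls (log2 fold change 0.63, edgeR adjusted p = 0.0169) and from 935 to 1314 CPM in knockouts (0.51, adjusted p = 0.0098). The cyclase gene Adcy4 fell by 1.56 in knockouts (adjusted p = 0.0261) and was at -0.68 in controls (adjusted p = 0.182). Of the protein kinase A genes, the catalytic subunit gene Prkacb rose in both genotypes (0.47 and 0.57), and Prkaca (0.57) and the regulatory subunit gene Prkar1a (0.46) passed the test in the knockouts. Rapgef3, which encodes the cAMP-activated exchange factor EPAC1, had 5 counts in control blood against 98 in control bone marrow and 3 against 166 in the knockouts. Among anchoring proteins, Akap8l (1.29 and 1.45) and Akap13 (0.81 and 0.65) rose in both genotypes, and Akap1 (-2.96 and -3.13) and the PDE4D-binding myomegalin gene Pde4dip (-0.79 and -0.94) fell. The CREB coactivator genes Crtc1, Crtc2 and Crtc3 rose by 0.86, 0.61 and 0.63 in controls and by 0.89, 0.64 and 0.61 in knockouts, and Crebbp rose in the knockouts by 0.85. In the list of phosphoinositide 3-kinase, AKT and export genes, the phosphoinositide 3-kinase gamma adaptor gene Pik3r5 rose by 1.36 and 1.73. Akt2 rose by 0.69 and 0.58, and the cyclic nucleotide exporter gene Abcc5 by 1.54 and 1.26. Abcc4, the other exporter, fell by 0.54 in knockouts and was at -0.07 in controls (edgeR adjusted p = 0.785). Of the 11 genes of cGMP synthesis and response, only the natriuretic peptide receptor gene Npr2 could be tested between tissues, at 0.85 (edgeR adjusted p = 0.039) in controls and -0.05 (adjusted p = 0.848) in knockouts. These tissue differences stand beside the shares of cycling-cell, eosinophil and neutrophil marker transcripts given above, whose part in them was not tested.

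**Figure D4:**
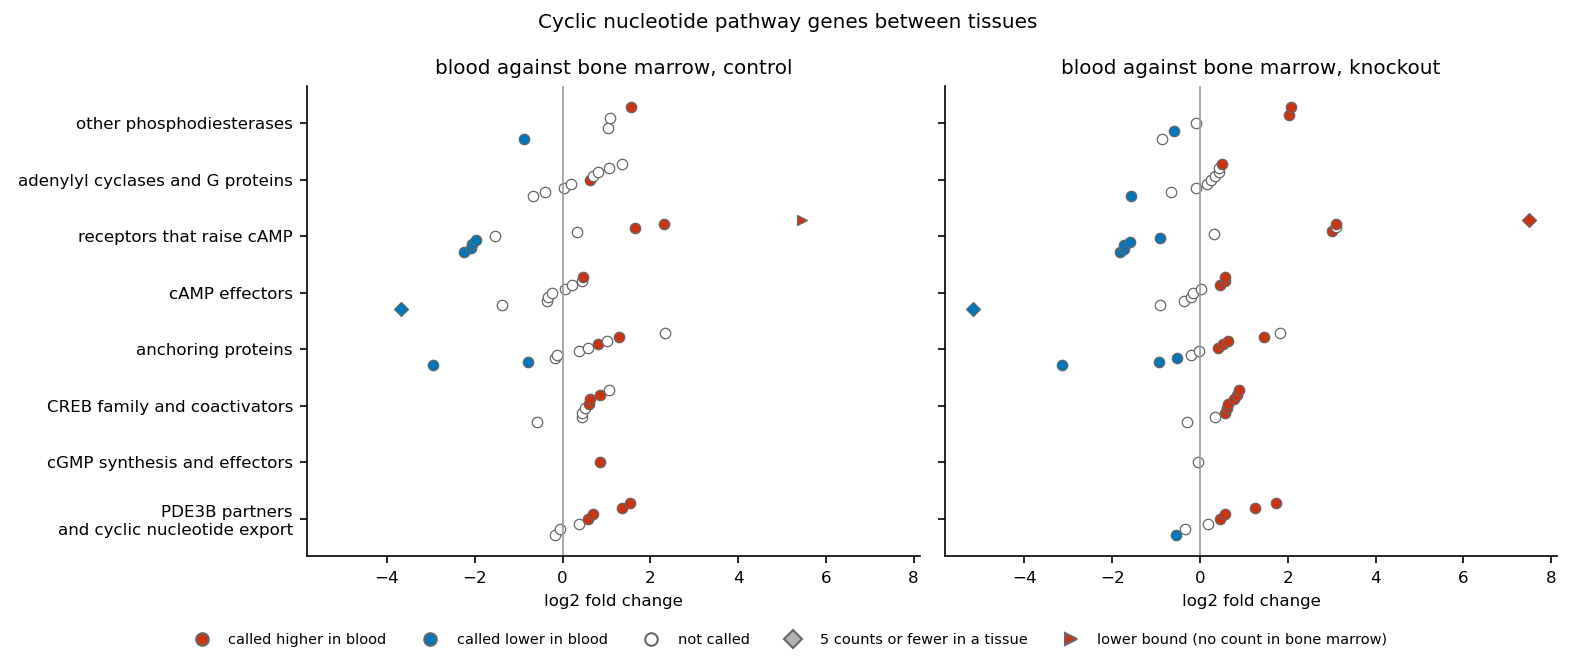
Log2 fold change of blood against bone marrow (horizontal axis) for each tested gene of 8 pathway lists (rows), in controls and in knockouts, filled where called higher (red) or lower (blue) and open where not called, with diamonds for genes with 5 counts or fewer in a tissue and a triangle for the lower bound of Adrb1. In controls the receptor list splits into 3 called higher and 4 called lower, and the CREB list has the coactivator genes Crtc1, Crtc2 and Crtc3 called higher.

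Genes with a profile most like that of each member were found by Pearson's correlation of log2 CPM over the 12 libraries among 14712 genes, as a description. The 12 points share 2 tissues and 2 genotypes, so the tissue difference alone makes many genes alike. For Pde3b the nearest were Paip2 (r = 0.96), the gene ENSMUSG00000097674 without a symbol (0.96), Mat2b (0.94), Sh3kbp1 (0.94) and Basp1 (0.94). Pde4b was closest to Nfkbiz (0.997), a member of the inhibitor of nuclear factor kappa B family, and to Ets2 (0.99) and Klrc2 (0.99). Pde4d was closest to Tgfbr3 (0.99), the T cell receptor complex gene Cd3d (0.98) and Foxn3 (0.98). Pde1b was closest to Ifi27l2a (0.98), Acp5 (0.97) and the MHC class II gene H2-Aa (0.97). Pde7a was nearest to Pak2 (0.89) and Pde8a to Gm15899 (0.84). Pde4a was nearest to Rbm19 (0.92) and Pde2a to Cd300lf (0.98).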

How the data were processed

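RNA of eosinophils isolated from bone marrow and blood was made into stranded mRNA libraries and sequenced single-end in the study. Per the file headers and the study's methods, the authors aligned reads with HISAT2 (version 2.2.1) and deposited whole-number read counts per gene from featureCounts, summed over exons of an Ensembl annotation of GRCm38. The methods text names a newer annotation. Counting used neither strand nor reads shared between genes. The submitters' processing notes list DESeq2 1.32.0 under R 4.1.0.

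The deposited counts of 12 libraries were used as they are, and 0 columns of other samples were present. Symbols came from GENCODE for 49674 of 53801 identifiers. Genes were kept by edgeR's filterByExpr (minimum count 10, minimum total 15). edgeR 4.0.16 with TMM factors and the quasi-likelihood test was run separately on the 6 libraries of each comparison, and on all 12 for the difference between tissues. Alternatives were DESeq2 1.42.0, limma-voom (limma 3.58.1), one fit of all libraries, RLE or library size scaling, filtering at 1 CPM in 3 libraries or not at all, a replicate block and leaving out each library. Named pathway genes were at most the 4 called genes of lowest p in each list and comparison, or else the 1 of lowest p, and the most abundant per kilobase. Nearest profiles used log2(CPM + 0.5), with 5 genes named for Pde3b and up to 3 for the others.

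The study isolated both tissues from 3 mice per genotype, but no source states which mouse a number marks. Same-numbered deviations from the group means correlated across genotypes in blood (0.595, 0.339 and 0.368 for numbers 1 to 3), so the numbers were taken to pair the blood samples. In bone marrow the same-number correlations were -0.196, -0.150 and -0.004. Between tissues they were 0.150, 0.159 and -0.046 in controls and -0.117, -0.101 and 0.070 in knockouts. These values show no clear pairing but cannot exclude that a number marks the same mouse in both tissues. All main tests were unpaired, with the replicate block as an alternative. P-values measure the spread between these libraries, and no library was closer to another than sampling noise. The scripts were tested on simulated counts that varied less between libraries than the blood and tissue comparisons did. That test does not show how well changes are detected there. The phosphodiesterase genes, the pathway lists and the marker lists were chosen with earlier results of these data known.

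Marker shares were compared between genotypes by two-sided exact permutation tests, 18 in all, in which 3 against 3 libraries cannot give a p below 0.1. The lowest p was 0.1, for platelet genes in blood and cycling-cell genes in bone marrow, and 0.72 after adjustment. Of 13 red cell markers 12 were found, and 1 anchoring protein gene was left out because its symbol matched several identifiers. The values of 1 gene of the receptor list are not reported here.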

Additional observations from a re-analysis of the deposited data

How the results depend on the processing

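The number of genes called depended on the processing wherever few were called. Between genotypes in bone marrow it was 48, against 196 (60 higher, 136 lower) with DESeq2, 12 with 1 fit of all 12 libraries, 420 (161 higher, 259 lower) without a filter, 23 with the replicate block, and 18 to 219 when 1 library was left out (219 without control library 1, 18 without control library 3, 24 without knockout library 1 or 2). Pathway genes called there were 3 with DESeq2 and 4 without a filter, all lower, against 0. In blood it was 5, against 22 with DESeq2 (13 higher, 9 lower), 16 with all libraries, 77 without a filter (18 higher, 59 lower), 10 with the replicate block, and 2 to 6 when 1 library was left out. It was also 5, but 4 higher and 1 lower in place of 5 higher, without both libraries numbered 1, an alternative chosen after seeing the data. The difference between tissues gave 15 genes with DESeq2 and 119 without a filter. Between tissues in controls, leaving out 1 library gave 2627 to 5926 genes and 13 to 33 pathway genes, the lowest without bone marrow library 3. The cause of these shifts was not tested.

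For the phosphodiesterase genes in blood between genotypes, no alternative gave a call. Leaving out 1 library gave -0.12 to 0.49 for Pde3b (negative without knockout library 3), -0.12 to 0.81 for Pde4d (negative without knockout library 1), -0.066 to 0.40 for Pde7a (negative without knockout library 3) and -0.36 to 0.17 for Pde1b (positive without knockout library 2 or 3 or control library 1). Library size scaling turned Pde1b to 0.11 and Pde2a to 0.026. Between tissues the sign turned for Pde8a in controls under library size scaling (-0.19). Pde4b, Pde4d and Pde1b were called higher in blood in both genotypes under every alternative run. The Pde2a call was lost in controls under DESeq2, library size scaling, no filter and the replicate block (adjusted p = 0.0950), and in knockouts without a filter (adjusted p = 0.0501) or without bone marrow library 1 or 3. The replicate block changed no other call of a phosphodiesterase gene. Same-number correlations were -0.196, -0.150 and -0.004 in bone marrow and ran from -0.117 to 0.159 between tissues. What the numbers mark there is not known. Depth limits Pde2a, with 2 to 14 counts per library.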
